A study of Macaca mulatta with 2 samples.

Results

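The 10 mitochondrially encoded respiratory genes ND1, ND2, ND3, ND4, ND5, COX1, COX2, COX3, ATP6 and CYTB were followed across the layers of the macaque retina. They were chosen by symbol from the 26533 features counted in the study, and all 10 were present. Their RNA was measured as unique molecular identifiers (UMIs, each tagging 1 captured molecule) in 2 spatial transcriptome sections of rhesus macaque posterior eyecup. The NHP1 section came from the right eye of a male aged 5 years, and the NHP2 section from the right eye of a male aged 6 years. Both animals were wild type, and both sections were labelled uninjected, that is, taken outside the subretinal vector blebs. Elsewhere in the same eyes, NHP1 had received AAV2-CAG-hRPE65 and NHP2 had received AAV8-GRK1-hRPGRco and AAV8-GRK1-mScarlet in separate blebs. The right eyes of both animals also underwent vitrectomy and repeated vitreous biopsies. They received triamcinolone under Tenon's capsule and a topical ointment of dexamethasone and antibiotics, but no adalimumab. The eyes were harvested 12 weeks after treatment. The punches of 4 mm held retina, choroid and sclera, and sections of 10 µm were permeabilized for 12 min on Visium slides. The labels call the tissue fresh frozen in the description but fixed in paraformaldehyde in the protocol. With 1 section per animal there was no replicate of either group, so no test was made and no p-value is given.

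Mitochondria hold their own small circular genome, which is read as long transcripts and cut into messenger RNAs that receive poly(A) tails inside the organelle. The proteins made from it are core subunits of the respiratory chain complexes I, III and IV and of the ATP synthase, complex V. All other subunits are encoded in the nucleus and imported. The retina is among the tissues with the highest energy demand, with mitochondria packed in photoreceptor inner segments, in the unmyelinated axons and cell bodies of ganglion cells, and in the retinal pigment epithelium (RPE).

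In the RefSeq annotation of Mmul_10 all 10 genes lay on the forward strand of the mitochondrial genome of 16564 bases. Visium captures RNA by its poly(A) tail. Where the tail of each messenger RNA begins was not examined, so the annotated end of a gene need not lie next to the capture site. The last annotated bases are shown for 3 abundant members (COX3, COX2, ND4) and for the 3 scarce ones (ND1, ND5, CYTB), with the bases of the stop codon in capitals.
COX3 (chrM:9952-9981): tctatatttctgtctattgatgaggatccT
COX2 (chrM:8186-8215): tttgaaataggacctgtatttactctgTAA
ND4 (chrM:12099-12128): atcccaacatcatcctaggatttacctccT
ND1 (chrM:4184-4213): tcgcaatctccagcattccccctcaaaccT
ND5 (chrM:14110-14139): cttaccctagccctaattctaatgataTAA
CYTB (chrM:15852-15881): taatcgaaaacaacctactcaagtgaactT
COX3, ND4, ND1 and CYTB end in a lone T, a stop codon that is completed by the first bases of the poly(A) tail. COX2 and ND5 carry a whole TAA. Of the 10 members 6 had an incomplete stop codon (ND1, ND2, ND3, ND4, COX3 and CYTB), and both kinds of end were found among abundant and among scarce members. Some neighbours share bases. ATP6 overlaps ATP8 by 46 bases and ND4 overlaps ND4L by 7, while ATP6 and COX3 share 1 base. The nuclear genome holds close copies of mitochondrial DNA. Of all windows of 90 bases along the mitochondrial genome, 92.4% had an exact match in the nuclear assembly and 99.1% a match with at most 1 mismatch. The longest nuclear copy covered 15400 bases at 99.7% identity. Counts of single members are therefore uncertain, because reads could be shared with such copies, and how the authors' counting treated them was not tested.

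NHP1 had 534 spots over tissue with 1484784 UMIs, and NHP2 had 470 with 805726 UMIs. The median spot held 1473.5 UMIs in NHP1 and 370.5 in NHP2. In NHP2 164 tissue spots held fewer than 200 UMIs, against 25 in NHP1. A spot covers several cells, and fewer cells of a type cannot be told apart from less RNA per cell. Intervals in parentheses are exact 95% intervals that cover counting error only, not the spread between animals or sections.

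The 10 genes gave 6.84% of all tissue UMIs in NHP1 (6.80 to 6.88) and 4.85% in NHP2 (4.80 to 4.90). COX3, a core subunit of cytochrome c oxidase, was the most abundant of all genes in both sections. It had 28758 UMIs in NHP1 and 12585 in NHP2, and was seen in 97.4% and 73.2% of tissue spots. COX2, which carries the copper centre that takes electrons from cytochrome c, held rank 2 in NHP1 with 18420 UMIs and rank 3 in NHP2 with 6743. COX1, the catalytic subunit with the haem groups at which oxygen is reduced, had 14376 and 4853 UMIs. ATP6, the subunit of the ATP synthase that forms the proton path, had 15229 and 6041 UMIs. These 4 genes were among the 5 most abundant genes of each section.

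The subunits of complex I, which takes electrons from NADH, were more uneven. ND4 had 13016 UMIs in NHP1 and 4681 in NHP2, ND2 had 6378 and 2462, and ND3 had 4872 and 1481. ND5 had 82 UMIs in NHP1 and 28 in NHP2, and ND1 had 10 and 4. CYTB, the only complex III subunit of the mitochondrial genome, had 440 and 193. ND1, ND5 and CYTB were thus scarce in both animals, ranking 9224, 3644 and 511 by UMIs among the 13804 genes detected in NHP1, and 9834, 5352 and 714 among the 12542 detected in NHP2.

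Per length, COX3, COX2 and ATP6 stayed at the top and CYTB, ND5 and ND1 at the bottom, while ND3 moved above ND4, COX1 and ND2. On the scale of UMIs per 10000 tissue UMIs and per kilobase, the NHP1 levels were 247 for COX3 (244 to 250), 181 for COX2 (179 to 184), 151 for ATP6 (148 to 153) and 94.8 for ND3 (92.2 to 97.5). ND4 at 63.6 (62.5 to 64.7) and COX1 at 61.7 (60.7 to 62.7) had overlapping intervals. ND2 followed with 41.2, CYTB with 2.60, ND5 with 0.305 and ND1 with 0.0705. In NHP2 the levels per kilobase ran in the same order from 199 for COX3, 122 for COX2 and 110 for ATP6 down to 2.1 for CYTB, 0.192 for ND5 and 0.0520 for ND1, the intervals of ND5 (0.127 to 0.277) and ND1 (0.0142 to 0.133) overlapping slightly. Capture at the 3′ end yields few tags per molecule whatever the length, so the order by raw UMIs, in which COX1 stands above ND3, is the other reading of these data.

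**Figure D1:**
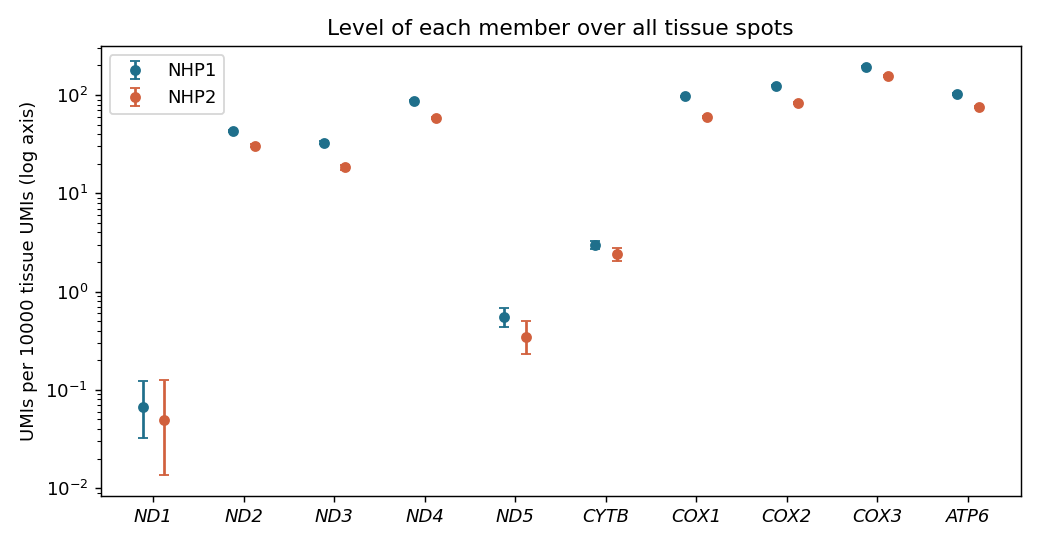
Level of each member over all tissue spots of NHP1 and NHP2, as UMIs per 10000 tissue UMIs on a log axis, with exact 95% intervals for counting error. COX3 was highest in both sections (194 and 156), and ND1 lowest (0.0673 and 0.0496).

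The 3 remaining protein-coding genes of the mitochondrial genome fitted into the same uneven picture. ATP8 shares 1 messenger RNA with ATP6 and lies upstream of it. It had 250 UMIs in NHP1 and 71 in NHP2, against 15229 and 6041 for ATP6. ND4L, which lies upstream of ND4 on their common messenger RNA, had 1435 and 484. ND6, the one protein-coding gene of the other strand, had 8 UMIs in NHP1 and 0 in NHP2, which allows a level of up to 3 UMIs.

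As a share of the member UMIs, COX3 made up 28.3% in NHP1 and 32.2% in NHP2. COX2 made up 18.1% and 17.3%, ATP6 14.99% and 15.5%, COX1 14.2% and 12.4%, and ND4 12.8% and 12.0%. ND2 held 6.28% and 6.30%, and ND3 4.80% and 3.79%. The makeup of the pool was thus close in both animals, with COX3, COX1 and ND3 differing most.

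The regions were derived from the expression of all other genes, with the 13 mitochondrial genes left out, and were named from cell type markers. In NHP1, 137 spots formed inner retina with ganglion cell markers and 61 spots formed inner retina without them. The former held 2 regions, with 10 and 6 of the 13 markers. The first, of 70 spots with a median of 6035.5 UMIs, was led by SST, BRINP1, TAC1, PRRT2 and PIGZ. The second, of 67 spots with a median of 751 UMIs, was led by ENSMMUG00000062077, ENSMMUG00000055690, VSNL1, DIRAS2 and RAP1GAP. The inner retina without ganglion cell markers was led by THSD7B, CNTNAP2, ACKR1, SMPD3 and GABRR1. It had 0 ganglion cell markers, 3 of bipolar, amacrine and horizontal cells and 4 of Müller glia. In the inner retina with ganglion cell markers, the first region had 12 and 10 markers of these other cells, and the second 6 and 2. Both classes thus held markers of other inner retinal cells, and they do not stand for the ganglion cell layer and the inner nuclear layer. A further 52 spots carried photoreceptor markers, 77 carried photoreceptor and RPE markers, 68 carried RPE and choroid markers, and 139 carried sclera markers. In NHP2, 35 spots formed inner retina with ganglion cell markers (10 of 13), 38 carried photoreceptor and RPE markers, 129 RPE and choroid markers and 235 sclera markers, and 29 stayed unnamed. Of the RPE and choroid spots of NHP2, 100 had a median of only 12 UMIs. The outer classes shared markers too. The largest NHP2 sclera region, of 117 spots, had 14 of the 17 sclera markers but also 11 of the 15 choroid markers. The RPE and choroid regions of NHP2 had 5 choroid markers each. That of NHP1 had 11 choroid and 10 sclera markers. These classes therefore do not stand for choroid and sclera as separate tissues. Neural retina below is the inner retina and all photoreceptor regions together, including those with RPE markers, so it is not free of RPE. Outer retina is the photoreceptor regions with or without RPE markers. In NHP2 all outer retina spots lay in the region with RPE markers.

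In both animals the members took their largest share of UMIs in the inner retina with ganglion cell markers. In NHP1 this share was 10.4% (10.3 to 10.5) with a spot median of 9.09%, and in NHP2 it was 6.79% (6.72 to 6.87) with a spot median of 5.22%. Pooled over each section, the lowest share of the named regions lay in the sclera, at 3.69% in NHP1 (3.58 to 3.80) and 2.22% in NHP2 (2.15 to 2.29). The median spot, however, was lower in the RPE and choroid of NHP2 (1.70%) than in its sclera (2.05%). The spots of that RPE and choroid had a median of 14 UMIs, against 532 in the sclera. Single-spot shares there are therefore coarse, with a lower quartile of 0%. In the second tissue piece of NHP1 the sclera, at 4.69% (4.51 to 4.87), was above the RPE and choroid (4.26%) and the inner retina without ganglion cell markers (3.47%). The photoreceptors of that piece, at 4.53% (4.19 to 4.88) over 11 spots, had an interval that overlapped that of the sclera. Pooled over pieces, photoreceptor and RPE regions held 7.05% in NHP1 and 3.04% in NHP2, and RPE and choroid regions held 4.19% and 2.65%. The NHP1 regions of photoreceptors alone held 4.37%, and its inner retina without ganglion cell markers 3.81%. The latter interval (3.74 to 3.87) overlapped that of the sclera, although its median spot had 4701 UMIs and that of the sclera 531.

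**Figure D2:**
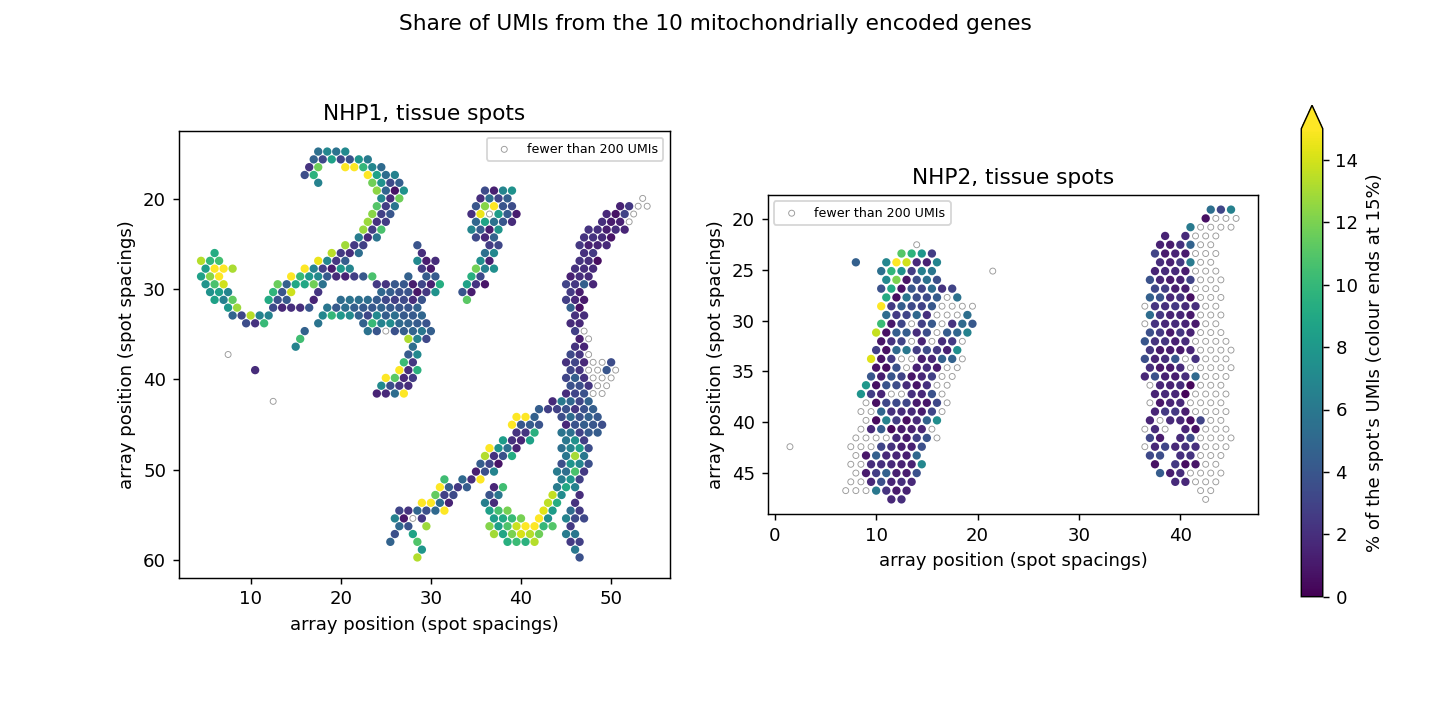
Tissue spots of both sections at their array positions in spot spacings, coloured by the share of UMIs from the 10 mitochondrially encoded genes, with spots under 200 UMIs drawn as grey rings. High shares form bands along part of the neural retina, while the sclera, with 3.69% in NHP1 and 2.22% in NHP2, is dark.

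The share varied widely within each region. In the NHP1 inner retina with ganglion cell markers the middle 50% of spots lay between 4.73% and 13.2%. In the NHP2 inner retina, spots ranged from 0.623% to 23.5%, with quartiles of 1.01% and 9.40%, so that this region held spots below the scleral median as well as, among NHP2 spots with at least 200 UMIs, the highest share. Neighbouring spots were alike, with a Moran's I of the share (1 for full similarity of neighbours, 0 for none) of 0.395 in NHP1 and 0.377 in NHP2 over spots with at least 200 UMIs. For single members it was up to 0.378 in NHP1 and 0.377 in NHP2, both for COX1, and near 0 for the scarce ND1 and ND5.

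**Figure D3:**
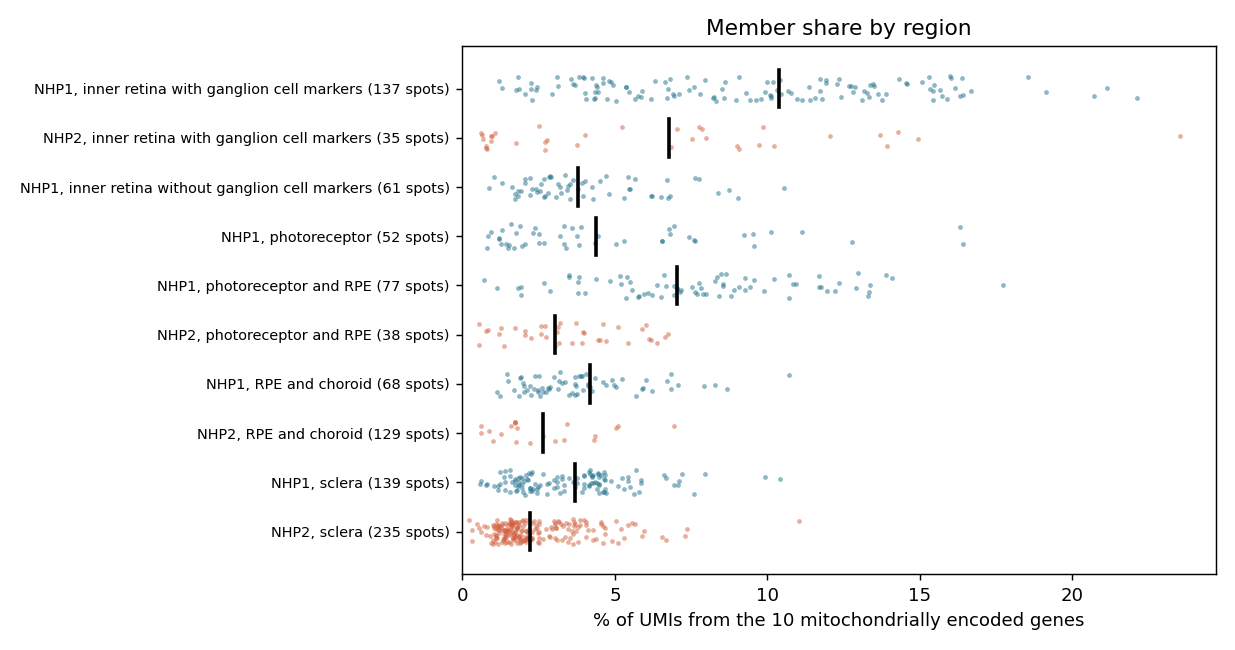
Share of UMIs from the 10 genes in each tissue spot with at least 200 UMIs, by region and animal, with the pooled share over all spots of the region as a black bar. Inner retina with ganglion cell markers has the highest pooled share in each animal (10.4% and 6.79%) and the sclera the lowest (3.69% and 2.22%).

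Neural retina was compared with sclera first. The members' share was 2.0 times higher in the neural retina of NHP1 (1.94 to 2.07) and 2.55 times higher in that of NHP2 (2.46 to 2.63). In NHP1, 8 of the 9 members with at least 50 UMIs were higher past 1.5-fold, as were 40.0% of all genes with that many. In NHP2 the count was 7 of 8 beside 47.9% of all genes higher and 18.5% lower, so that being higher in neural retina was common among genes in general. In NHP1, COX2 had 134 UMIs per 10000 in neural retina and 60.2 in sclera, a ratio of 2.22 (2.06 to 2.41). In NHP2 it had 101 and 24.7, a ratio of 4.10 (3.72 to 4.53). ND3 was the exception in NHP2, with 18.3 UMIs per 10000 in neural retina and 18.9 in sclera, a ratio of 0.967 (0.855 to 1.10), whereas it was 1.81 in NHP1 (1.58 to 2.09). ND5 in NHP1 was the member that stayed under 1.5-fold there, at 1.10 (0.481 to 3.08).

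The sclera of NHP1 lay in 2 tissue pieces that differed, with a member share of 2.76% in one and 4.69% in the other. The ratio of neural retina to sclera was accordingly 2.80 within the first piece and 1.60 within the second. In NHP2 the ratio was 2.28 and 2.35 within its pieces. The ratio of RPE and choroid regions to sclera was 1.14 in NHP1 (1.09 to 1.18) and 1.20 in NHP2 (1.06 to 1.34). In NHP1 its direction turned between pieces. The RPE and choroid held 4.12% (3.97 to 4.28) and the sclera 2.76% (2.63 to 2.90) in the first piece, but 4.26% (4.11 to 4.42) and 4.69% (4.51 to 4.87) in the second. No member of the 7 compared passed 1.5-fold in NHP1, beside 20.9% of all genes higher. In NHP2, 2 of 7 members did, beside 23.0% of all genes higher and 31.9% lower, so the members were near the share of all genes. These were ND2 at 1.71 (1.03 to 2.68) and COX2 at 1.65 (1.19 to 2.23), on only 21 and 47 UMIs in the RPE and choroid.

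Within the NHP1 inner retina, the pooled share of the members differed between the regions with ganglion cell markers and the region without them. Single spots overlapped, with quartiles of 4.73% and 13.2% with the markers and 2.45% and 5.43% without. The members' summed level was 2.73 times higher where the markers were present (2.68 to 2.78). All 8 members compared were higher past 1.5-fold, beside 7.98% of all genes higher and 22.1% lower, and the median over the 8 was 2.93 beside 0.873 over all genes. COX1 had 150 UMIs per 10000 with and 49.96 without ganglion cell markers, a ratio of 2.99 (2.84 to 3.15). ATP6 had 169 and 54.8, a ratio of 3.08 (2.93 to 3.23). COX3 had 288 and 120, the lowest ratio of the 8 at 2.39 (2.31 to 2.47), and CYTB had 4.92 and 1.51, the highest at 3.26 (2.43 to 4.45).

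ND2, ND3, ND4 and COX2 lay between these values, at 2.87, 3.10, 2.74 and 2.70. ND5, with 42 and 5 UMIs, had a ratio of 5.86 with a wide interval (2.32 to 19.0) and fell below the minimum of 50 UMIs. The NHP1 summed ratio was 1.79, 3.11 and 2.0 within its 3 tissue pieces, so its size rested in large part on the second piece, but the direction was the same in each. As UMIs per spot rather than a share, no such common direction was seen. The members had on average 164 UMIs per spot with and 212 without ganglion cell markers in the first piece, 719 and 276 in the second, and 104 and 110 in the third. The regions with ganglion cell markers themselves differed, at 723 member UMIs per spot in one and 55.1 in the other.

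Inner and outer retina differed less in NHP1. The members had 768 UMIs per 10000 in the inner and 668 in the outer retina, a ratio of 1.15 (1.13 to 1.17). None of the 9 members compared passed 1.5-fold in either direction, beside 21.8% of all genes higher and 12.1% lower. ATP6 had the largest ratio at 1.42 (1.36 to 1.48), ND4 lay at 0.992 (0.953 to 1.03) and ND2 at 0.929 (0.879 to 0.983). ND5, with 47 and 28 UMIs, lay at 0.677 (0.415 to 1.12). The ratio was 1.04, 1.21 and 1.51 in the 3 tissue pieces.

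In NHP2 the inner retina held 679 member UMIs per 10000 and the outer retina 304, a ratio of 2.24 (2.17 to 2.30). All 8 members compared were higher past 1.5-fold, beside 22.1% of all genes higher and 18.9% lower. ATP6 again had the largest ratio, at 3.55 (3.26 to 3.88), from 112 UMIs per 10000 in the inner and 31.4 in the outer retina. CYTB followed at 3.41 (2.13 to 5.73) and COX1 at 3.03 (2.78 to 3.32), and ND3 was lowest at 1.71 (1.48 to 1.99). In both animals, the ratio was thus larger for ATP6 than for any of the complex I members compared. With each spot assigned by its own highest marker score in place of clustering, the ratio became 1.49 in NHP1 and 3.65 in NHP2.

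**Figure D4:**
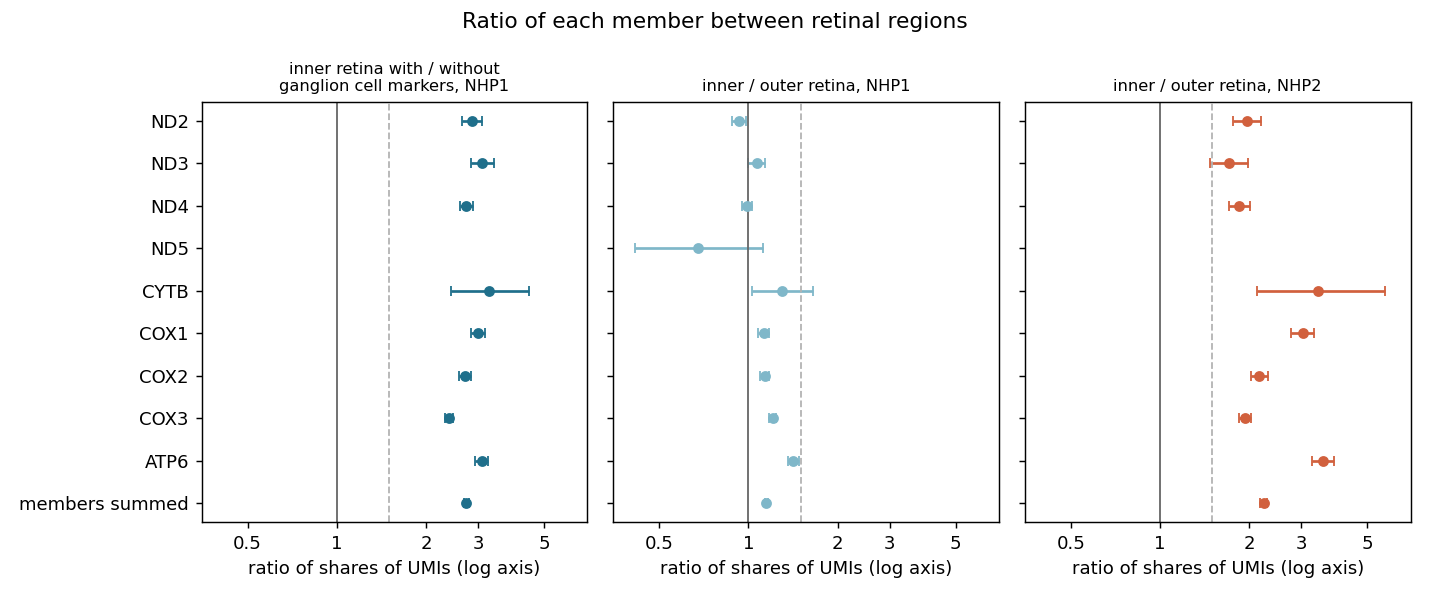
Ratio of each member's share of UMIs between retinal regions on a log axis, with exact 95% intervals, for members with at least 50 UMIs in the comparison (ND5 in the middle panel alone, ND1 in none). The solid line marks equal levels and the dashed line 1.5-fold. All 8 members lie past 1.5 with against without ganglion cell markers in NHP1 and for inner against outer retina in NHP2, and none does for inner against outer retina in NHP1.

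The members of complex IV and complex I were also set against each other. Complex IV members (COX1, COX2, COX3) had 2.53 UMIs for each UMI of complex I members in NHP1 (2.49 to 2.56) and 2.79 in NHP2 (2.73 to 2.86). In NHP1 the ratio ran from 2.23 in photoreceptor and RPE regions and 2.25 in sclera to 2.82 in inner retina without ganglion cell markers and 2.95 in RPE and choroid. In NHP2 it ran from 1.77 in sclera and 1.82 in RPE and choroid to 3.05 in inner retina (2.96 to 3.14). The RPE and choroid thus stood at opposite ends in the animals, on 306 member UMIs in NHP2 and 5461 in NHP1.

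Over spots with at least 1000 UMIs, the abundant members went together. Spearman's rho between a member and the sum of the other 9 was 0.814 to 0.930 for ND2, ND3, ND4, COX1, COX2, COX3 and ATP6 in NHP1 (324 spots), and 0.595 to 0.876 in NHP2 (127 spots). It was lower for CYTB (0.533 and 0.497), ND5 (0.345 and 0.394) and ND1 (0.114 and 0.246), whose counts per spot were few. The spots of a section share a library, and their depth differs.

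The share was also set against the marker lists in spots with at least 200 UMIs. In the inner retina its rho with the summed 13 ganglion cell markers was 0.609 in NHP1 (192 spots) and 0.774 in NHP2 (35 spots). With the 28 photoreceptor markers it was -0.296 and -0.310, with the Müller glia markers -0.171 and -0.134, and with the markers of bipolar, amacrine and horizontal cells -0.101 and -0.0952. In the outer retina it was 0.487 with RPE markers in NHP1 (126 spots) and 0.284 in NHP2 (38 spots). With ganglion cell markers it was 0.360 in the outer retina of NHP1 and -0.163 in that of NHP2, and with RPE markers 0.163 and 0.446 in the inner retina. In the NHP1 outer retina it was also 0.360 with Müller glia markers and 0.345 with choroid markers. Of the lists examined in the inner retina, the ganglion cell markers thus had the highest coefficient in both animals, and no single list was highest in both layers. Red blood cell and immune markers were rare, at 68 and 107 UMIs in the NHP1 neural retina and 3 and 133 in that of NHP2. Of the 8 red blood cell markers listed, only 6 were among the features, without HBB and HBA2.

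The share and depth were loosely related over tissue spots. The rank correlation coefficient was 0.285 in NHP1 and 0.122 in NHP2, and -0.000976 in NHP2 over spots with at least 200 UMIs. Within regions it lay between -0.348 and 0.311 in NHP1 and between -0.357 and 0.321 in NHP2.

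The nuclear-encoded subunits of the same complexes followed the members in some comparisons and not in others. Of the 77 subunits listed for complexes I, III, IV and V, 66 were among the features. They gave 3.66% of tissue UMIs in NHP1 (3.63 to 3.69) and 3.43% in NHP2 (3.39 to 3.47), so there were 1.87 member UMIs for each nuclear-encoded subunit UMI in NHP1 and 1.41 in NHP2. In the NHP1 inner retina this ratio was 2.82 with ganglion cell markers (2.77 to 2.86) and 0.999 without (0.976 to 1.02). In NHP2 it was 1.72 in the inner retina, 0.704 in photoreceptor and RPE regions, and 1.76 in the sclera.

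Between the NHP1 inner retina with and without ganglion cell markers, the nuclear-encoded subunits had a summed ratio of 0.968 (0.947 to 0.989). Of the 63 compared, 1 was higher and 2 were lower past 1.5-fold, and their median was 1.02 beside 0.873 over all genes. NDUFA4, the most abundant of them and bound to cytochrome c oxidase, had a ratio of 1.02 (0.939 to 1.10). COX4I1, a cytochrome c oxidase subunit, had 1.10 (0.993 to 1.22), and ATP5ME, a subunit of the ATP synthase, had 0.960 (0.857 to 1.07). UQCRH, which belongs to complex III, was among those lower, at 0.580 (0.488 to 0.688). The 4 subunits of complex II, which has no mitochondrially encoded part, had a summed ratio of 1.01 (0.817 to 1.26).

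Between inner and outer retina, the nuclear-encoded subunits had a summed ratio of 0.882 in NHP1 and 0.917 in NHP2, where the members had 1.15 and 2.24. In NHP1, 1 of 64 was higher and 2 were lower past 1.5-fold, beside 21.8% and 12.1% of all genes. In NHP2, 2 of 62 were higher and 4 lower, beside 22.1% and 18.9%. Between neural retina and sclera they were higher, as the members were, at 1.58 in NHP1 with 33 of 64 past 1.5-fold (40.0% of all genes) and at 3.22 in NHP2 with 58 of 62 (47.9% of all genes). NDUFA4 had 2.19 (1.87 to 2.60) and 5.31 (4.36 to 6.52) there.

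Other mitochondrial lists were also examined between the NHP1 inner retina with and without ganglion cell markers, where 7.98% of all genes were higher, 22.1% were lower and the median over all genes was 0.873. The 16 measured genes of mitochondrial mass, such as the outer membrane channel VDAC1 and the phosphate carrier SLC25A3, had a summed ratio of 1.04 (0.978 to 1.10), and none of the 16 passed 1.5-fold. VDAC1 itself had 1.29 (1.12 to 1.49). The genes for mitochondrial RNA processing and translation had 0.840 (0.755 to 0.936), with 0 higher and 4 lower of the 10 compared. LRPPRC, which binds and stabilizes mitochondrial messenger RNA, had 0.627 (0.408 to 0.962), and its partner SLIRP 1.17 (0.923 to 1.48). The genes for upkeep and transcription of mitochondrial DNA had 0.765 (0.634 to 0.924), with 0 of the 2 compared past 1.5-fold. Of these, the single-strand binding protein SSBP1 had 0.922 (0.636 to 1.34), and TFAM, which packs and transcribes mitochondrial DNA, had 13 and 17 UMIs. The assembly factors had 0.760 (0.682 to 0.847), with 1 of 5 lower past 1.5-fold, and COX17, the copper chaperone of cytochrome c oxidase, lay at 0.657 (0.562 to 0.768).

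The genes most like the members over tissue spots were ranked by the rho of their share with the members' share. In NHP1, among 445 genes over 509 spots, the first 3 were features for which no name was found, led by ENSMMUG00000049855 (rho 0.806) and ENSMMUG00000028699 (0.789), followed by NEFL, a neurofilament of ganglion cells and their axons (0.391), and the ribosomal protein gene RPL30 (0.386). In NHP2, among 231 genes over 306 spots, the same 3 features led, the first 2 at 0.465 and 0.358. They were followed by IFI6, an interferon-induced gene (0.305), and ZC3H10 (0.284). The median over all genes was 0.129 in NHP1 and 0.0955 in NHP2.

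ENSMMUG00000049855 was also 3.40 times higher with than without ganglion cell markers in NHP1 (3.21 to 3.59), and ENSMMUG00000028699 2.67 times (2.45 to 2.91), beside 2.73 for the members. Whether these unnamed features share reads with the members, for example as nuclear copies of mitochondrial DNA, was not tested, so they may not be separate genes. IFI6 had 478 UMIs in the NHP2 inner retina and 43 in that of NHP1, a ratio of shares of UMIs of 23.0 (16.8 to 32.2).

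The animals were compared within regions that both sections held. Animal, library, depth and the makeup of the region differ together here and cannot be told apart. In the inner retina with ganglion cell markers, the members had 1039 UMIs per 10000 in NHP1 and 679 in NHP2, a ratio of NHP2 to NHP1 of 0.654 (0.644 to 0.663). Of the 9 members compared 6 were lower past 1.5-fold, beside 5.64% of all genes lower and 13.9% higher. ND3 was lowest of the abundant members at 0.418 (0.387 to 0.451), with 50.04 UMIs per 10000 in NHP1 and 20.9 in NHP2, and COX3 at 0.738 (0.719 to 0.758) and CYTB at 0.740 (0.603 to 0.907) were closest to 1. NHP2 had no inner retina region without ganglion cell markers. Over all inner retina spots of both sections the ratio was 0.884 (0.872 to 0.896). Over these spots 2 of the 9 members, ND3 at 0.579 and ND5 at 0.617, were lower past 1.5-fold beside 8.56% of all genes lower and 7.25% higher.

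In photoreceptor and RPE regions the members had 705 UMIs per 10000 in NHP1 and 304 in NHP2, a ratio of 0.430 (0.418 to 0.443). All 8 members compared were lower past 1.5-fold in NHP2, beside 9.0% of all genes lower and 13.4% higher, from COX1 at 0.293 (0.267 to 0.321) to COX3 at 0.577 (0.549 to 0.607). The nuclear-encoded subunits had a ratio of 1.01 in the same regions (0.987 to 1.04), with 2 of 61 higher and 5 lower. In the inner retina with ganglion cell markers they had 1.07, with 1 of 63 higher and 0 lower. The lower level in NHP2 was therefore seen for the mitochondrially encoded and not for the nuclear-encoded subunits in these 2 regions. The regions were unlike, since those of NHP2 were its whole inner and its whole outer retina and those of NHP1 only parts. Over all outer retina spots the members held 6.68% of UMIs in NHP1 and 3.04% in NHP2. Over all inner retina spots the members had 0.884 and the nuclear-encoded subunits 1.06 (1.04 to 1.08).

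The sclera showed another picture. There the members' ratio was 0.601 (0.575 to 0.629) with 3 of 7 lower past 1.5-fold, beside 23.4% of all genes lower and 25.4% higher, and the nuclear-encoded subunits were lower too, at 0.513 (0.484 to 0.543) with 27 of 39 past 1.5-fold. In RPE and choroid regions the members' ratio was 0.633 (0.562 to 0.711) with 4 of 7 lower, beside 35.1% of all genes lower and 14.3% higher, and that of the nuclear-encoded subunits was 0.906 (0.796 to 1.03).

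Member RNA was also found off the tissue. The 4284 spots off tissue in NHP1 held 523115 UMIs, of which 10.5% came from the members (10.4 to 10.6). The 4027 spots in NHP2 held 76907 UMIs, of which 7.24% came from the members (7.06 to 7.42). Their share was therefore 1.54 times that of tissue spots in NHP1 (1.52 to 1.55) and 1.49 times in NHP2 (1.45 to 1.54). In NHP1 6 of 9 members were higher off tissue past 1.5-fold beside 1.87% of all genes higher and 14.4% lower, and in NHP2 4 of 8 were, beside 9.26% of all genes higher and 23.8% lower. ND2 had the largest ratio of the abundant members in both, at 1.77 (1.70 to 1.84) and 1.80 (1.62 to 1.996). COX3 lay at 1.43 (1.40 to 1.46) and 1.53 (1.46 to 1.61).

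The share off tissue was highest next to it. In NHP1 it was 11.2% within 1 spot spacing, 10.6% at over 1 to 3, 8.28% at over 3 to 6 and 7.60% farther away. In NHP2 it was 8.39%, 7.81%, 4.13% and 3.58% in the same steps. The nuclear-encoded subunits stayed between 3.23% and 3.64% in NHP1, and went from 3.96% to 2.42% in NHP2, so in NHP1 the members' share declined with distance while that of these subunits had no such course.

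**Figure D5:**
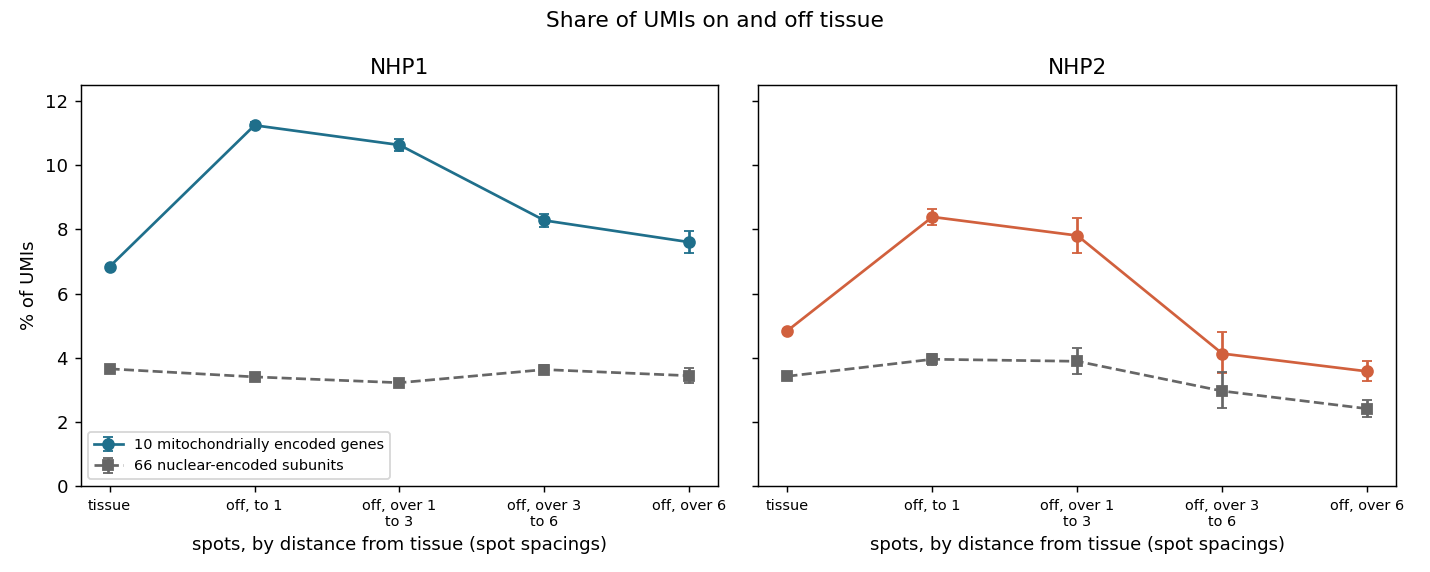
Share of UMIs from the 10 mitochondrially encoded genes (circles, solid) and from 66 nuclear-encoded subunits (squares, dashed) in tissue spots and in spots off tissue by distance in spot spacings, with exact 95% intervals. In NHP1 the members had 6.84% on tissue, 11.2% next to it and 7.60% at over 6 spacings.

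In NHP1 spots off tissue that bordered each region held between 10.0% and 12.2% from the members, whichever region they bordered. The tissue spots at the edge of those regions ranged from 3.27% to 10.2%. Beside inner retina with ganglion cell markers, the share off tissue was 1.10 times that of the edge (1.07 to 1.12), and beside inner retina without them 3.38 times (3.25 to 3.51). In NHP2 the spots off tissue held 11.7% beside the inner retina, 10.5% beside unnamed spots, 8.20% beside RPE and choroid, 5.35% beside the sclera and 4.24% beside photoreceptor and RPE regions. With the mean of the spots farther than 3 spacings subtracted from every tissue spot, the ratio of neural retina to sclera was 2.11 in NHP1 and 2.56 in NHP2, and that of inner retina with against without ganglion cell markers 2.75. The part that RNA from beyond a spot has in the differences between neighbouring regions was not tested.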

How the data were processed

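Counts were deposited by the authors as raw UMIs per gene and spot for the whole capture area, with no normalization, made with Space Ranger 2.1.0 against Mmul_10 with transgene sequences added. The annotation the authors counted against was not used here. Their table of spatial statistics gives summed counts, which equalled the sums over tissue spots for all 13804 genes of NHP1 and all 12542 of NHP2. Its Moran's I (a score computed by the authors), p-values and adjusted p-values, and its scaled average counts, a signal deposited by the authors, were not used here. Of 26533 features, 9855 had no symbol and 503 of these were named from tables. The sections had 67 tissue barcodes in common, since Visium barcodes mark array positions.

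Tissue spots of each section were clustered with Python 3.11.15, numpy 2.4.6, scipy 1.17.1, pandas 2.3.3, scanpy 1.11.5 and leidenalg 0.10.2. Counts without the 13 mitochondrial genes were brought to a common total of 10000 per spot before log1p, and 2000 variable genes, 20 components, 15 neighbours and resolution 1 were used. A region was named with at least 3 markers of a class, each with at least 3 UMIs and 1.5-fold over the rest, and carried both photoreceptor and RPE markers from 10 and 5 of them. This rule was chosen after looking at the regions. No doublet caller was run, since a spot holds several cells. Shares were given Clopper-Pearson and ratios conditional binomial intervals at 95%. Genes with at least 50 UMIs over both sides were compared, and called past 1.5-fold. A count of 0 allows up to 3 UMIs. Genes were named as the 10 members, the 3 other mitochondrial genes, the 3 genes with most UMIs per list, the 5 genes most like the members in each section (at least 500 UMIs) and the 5 leading genes of a region. Members and lists were chosen with earlier results of these data known. LRPPRC, SLIRP, SSBP1, TFAM, VDAC1, SLC25A3, COX17 and the subunits named fall under the rule. Nuclear copies were searched with BLAST 2.17.0, and figures drawn with matplotlib 3.10.9. Calculations were tested on simulated data. Alternatives were a minimum of 200 UMIs per spot or gene, means over spots, other denominators, removal of the most abundant gene, background subtraction and other groupings of spots. Each tissue piece alone, regions with a median of at least 1000 UMIs and all inner retina spots for the animals were added after seeing the data. The leading genes of the NHP2 inner retina region are not reported here.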

Additional observations from a re-analysis of the deposited data

Results flagged for a closer look

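ND2, a core subunit of complex I, went in opposite directions between inner and outer retina in the 2 sections. The ratio of inner to outer retina was 0.929 in NHP1 (4083 and 1772 UMIs) and 1.96 in NHP2 (1841 and 410 UMIs). The difference was not tested, since each animal has 1 section, and the makeup of the inner and outer retina regions differs between the sections.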

How the results depend on the processing

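No paired analysis was possible because each group has 1 section and no replicate numbers are shared, and for the same reason no replicate could be left out. Of the alternatives, 43 kept the value of a comparison, 43 moved it beyond its counting interval or the 1.5 times allowed for counts, and 1 reversed it, and 18 further values of single members were kept. The reversal was the rho between member share and depth in NHP2, which was -0.000976 over spots with at least 200 UMIs. The ratios of neural retina to sclera, inner to outer retina and with against without ganglion cell markers kept their direction under every alternative in which both sides were formed. At resolution 0.5, NHP1 had a single inner retina region, and inner and outer retina of NHP2 fell into a single region. The ratio with against without ganglion cell markers in NHP1 and that of inner to outer retina in NHP2 therefore had no value there. Marker scores per spot did not split the inner retina by ganglion cell markers. The ratio of RPE and choroid to sclera was not recomputed under the alternatives, and turned between the pieces of NHP1. Averaged over spots, the section shares were 5.82% and 3.52%, the ratio of neural retina to sclera 2.15 and 1.70, that of inner to outer retina 1.17 and 1.79 (NHP1 and NHP2), and that with against without ganglion cell markers 2.33. Without the 50 most abundant other genes in the denominator, these were 7.86% and 5.57%, 1.89 and 2.28, and 1.12 and 2.14. Without COX3 the shares were 4.90% and 3.29%, inner against outer retina 1.13 and 2.41, and with against without ganglion cell markers 2.89. After background subtraction neural retina against sclera was 2.11 in NHP1. At resolution 0.5 it was 2.09, and inner against outer retina 1.22 in NHP1. Clustering with mitochondrial genes gave 1.24 for the latter and 2.97 for with against without ganglion cell markers. Marker scores per spot gave 1.49 in NHP1 and 3.65 in NHP2 for inner against outer retina. For NHP2 against NHP1, 5 members were lower in sclera with a denominator of non-mitochondrial genes (3 in the main setting), and 1 in all inner retina with at least 200 UMIs (2 in the main setting). Members made up 8.11% and 3.70% at over 3 spacings from tissue. Without NDUFA4 there were 2.02 and 1.53 member UMIs for each nuclear-encoded subunit UMI. Within the pieces neural retina against sclera was 2.80 and 1.60 in NHP1 and 2.28 and 2.35 in NHP2, inner against outer retina 1.04, 1.21 and 1.51 in NHP1 and 2.36 in piece 2 of NHP2, and with against without ganglion cell markers 1.79, 3.11 and 2.0. NHP1 regions with a median of at least 1000 UMIs gave 1.09 for inner against outer retina. The cause of these shifts was not tested. Counts were few for ND1 (10 and 4 UMIs), ND5 (82 and 28) and the RPE and choroid of NHP2 (306 member UMIs).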
